A study of Gallus gallus with 6 samples.

Results

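The genes described here mark T cells and natural killer cells, or carry the signal that activates them, in the ileum of Taiping chickens. They were chosen by name, with earlier results of these data known. Of 38 symbols, 37 were found in the table of 17623 genes. All 37 had an FPKM of at least 1 in either group, as did 12828 genes in all. FPKM is the number of sequenced fragments scaled to transcript length and depth. The symbol CD6 was not in the table, and that gene was found through its NCBI gene number and is given beside CD5. RNA was sequenced from the ileum of male birds aged 2 months. In the MP group, 3 libraries came from birds on a basal diet whose water held 2 mL of probiotics per litre. In the CT group, 3 libraries came from birds on the corn-soybean basal diet without probiotics (0 mL per litre). The probiotic strains are not given in the labels, and neither is the number of birds behind a library.

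A T cell recognises antigen with a receptor that cannot signal by itself. The CD3 chains and the zeta chain CD247 carry the signal inward, the coreceptors CD4 and CD8 bring the kinase LCK to the complex, and ZAP70 and a set of adaptors pass the signal on. CD28 and ICOS strengthen it and CTLA4 restrains it. Natural killer cells lack that receptor but share transcription factors, cytokine receptors and killing granules with CD8 T cells. The chicken gut wall holds many such cells, both among the epithelial cells and in the tissue beneath them. Roles are given as known from mouse and human.

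Each value is the authors' mean of the 3 libraries of a group. No spread between birds can be derived from it, so no test of MP against CT was possible and "lower" or "higher" describes these means only. Differences are MP minus CT on the log2(FPKM + 1) scale, on which the differences of weakly expressed genes appear smaller than they are. A depth-scaled count ratio (MP over CT, from the summed counts of each group) is given with an exact 95% Clopper-Pearson interval, which holds counting error and nothing else; PCR copies are not separated from original molecules in it. After a pair of levels, a single value in parentheses is the log2 difference, and a value followed by a range is the count ratio with its interval. Mean counts summed to 15928865 per library in MP and 17150865 in CT. In whole tissue, fewer T cells and less RNA per T cell cannot be told apart.

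In the MP mean 36 of the 37 genes, called members here, were lower than in CT, with a median log2 difference of -0.27. Among all 12828 genes tested, 62.2% were lower and the median was -0.07. The alpha chain of the interleukin 2 receptor, IL2RA, was the 1 member that was higher. With median-of-ratios scaling, which brings the median gene to 0.00, 30 of 37 members were lower and their median was -0.19. By a step of 0.32 or more on the log2 scale, 14 members were lower and 0 higher, where 11.2% of all genes tested were lower and 8.49% higher by as much. At 1.5-fold the members that were lower numbered 5 (CD40LG, EOMES, TOX, TRAT1 and CD4), and 0 were higher, against 1.97% and 2.87% of all genes, but the lower number ran between 0 and 7 under the other settings. The counting interval of the ratio lay wholly below 1 for 27 members and wholly above 1 for 1. Over all genes tested those shares were 43.3% and 23.7%.

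**Figure D1:**
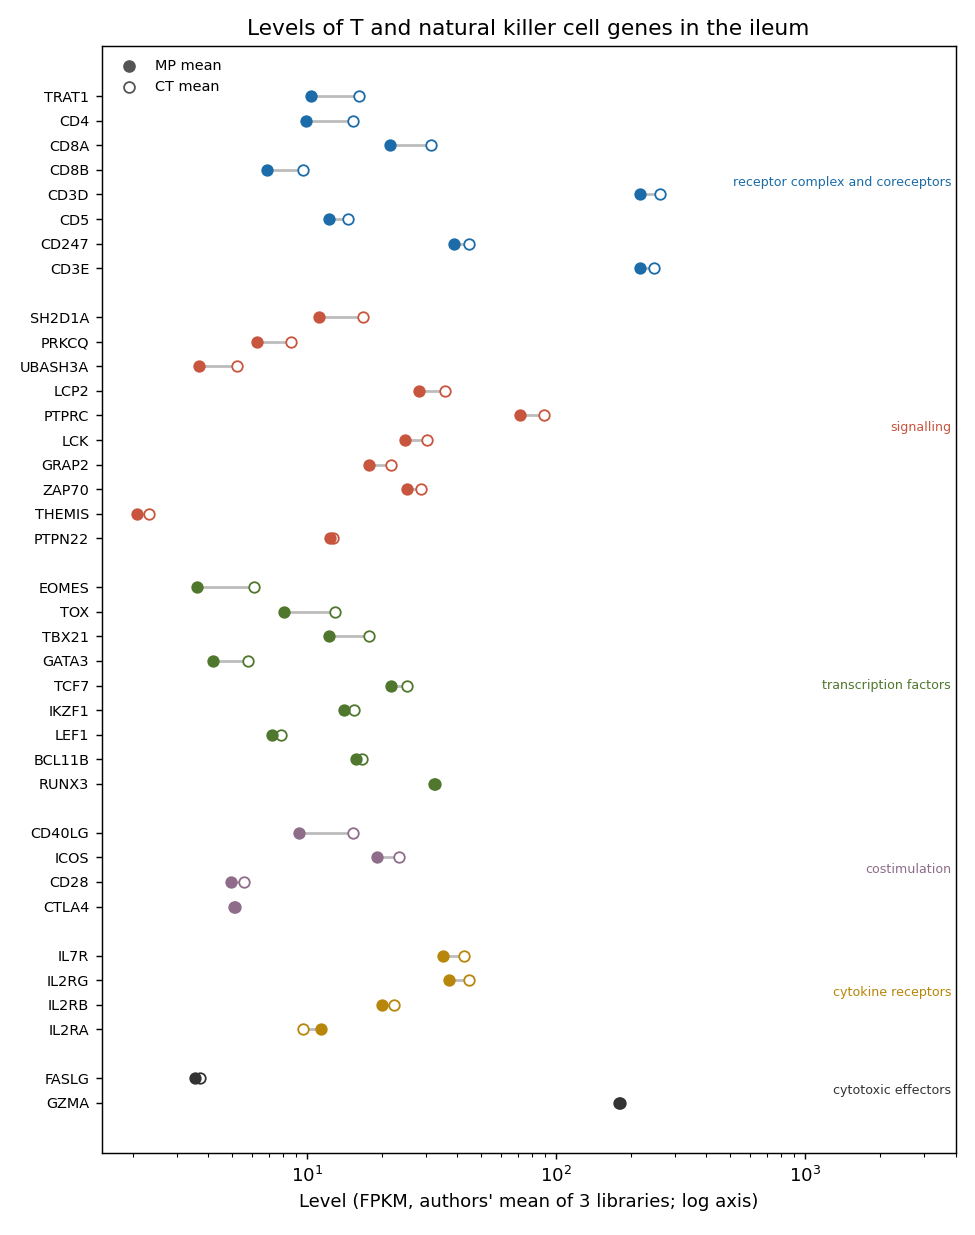
Levels of the 37 members in FPKM on a log axis, by role. Filled points are the MP mean and open points the CT mean of 3 libraries; in 36 rows the filled point lies to the left of the open one, by little for GZMA, RUNX3 and CTLA4, and IL2RA is the exception.

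The levels spanned a wide range. CD3D and CD3E were the highest members, with more FPKM than 97.8% and 97.7% of the genes tested. They were followed by granzyme A (GZMA) and by PTPRC, the phosphatase CD45 found on all white blood cells. THEMIS, a signalling protein of developing T cells, was the lowest at 2.08 FPKM in MP and 2.32 in CT. Across the 37 members the log2 difference had little relation to the level (Pearson's r 0.11, Spearman's rho 0.09) or to the count per FPKM, which follows transcript length (0.01 and 0.03). These are descriptions across genes that share the same libraries. Among all genes, by contrast, ordered into 10 bins by count per FPKM, the median difference ran from 0.12 in the lowest bin to -0.15 in the highest. With the median of its own bin subtracted from each gene, 32 of 37 members were lower and the median was -0.17.

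**Figure D2:**
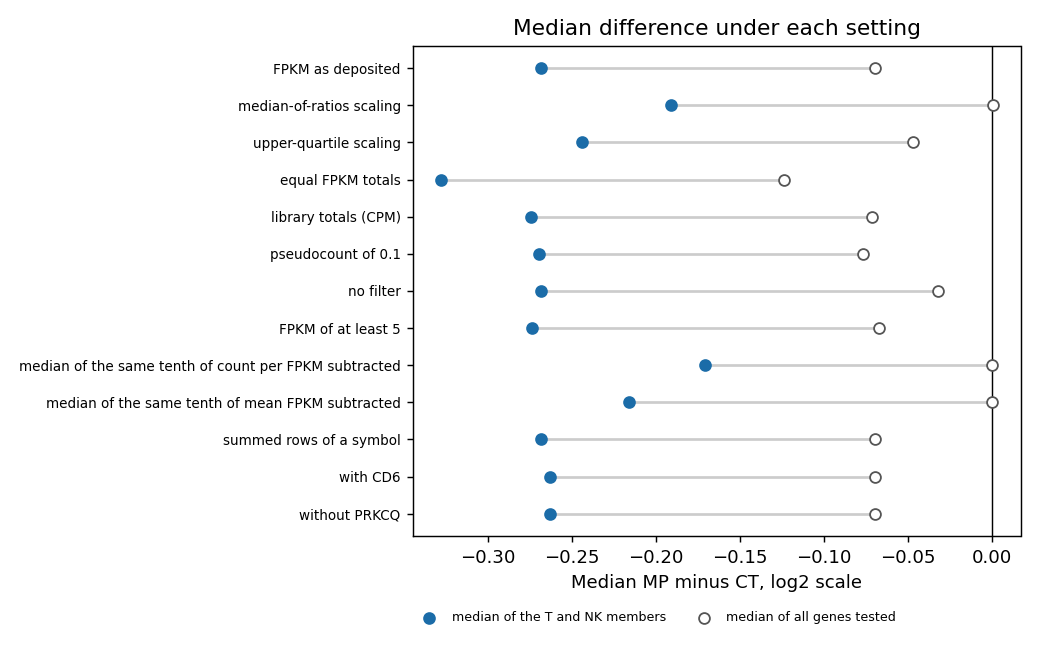
Median MP minus CT difference of the members (filled) and of all genes tested (open), on the log2 scale, under the deposited FPKM and each other setting. The members' median lies between -0.33 and -0.17 and to the left of the median of all genes in each row.

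The receptor complex and its coreceptors were lower for 8 of 8 genes (against 62.2% of all genes), with a median log2 difference of -0.35. CD4, CD8A and CD8B differed by more than CD3D and CD3E in the deposited FPKM. With the genes split into 10 bins by count per FPKM and the bin's median difference subtracted, that order turned for CD3D (-0.39) and CD8B (-0.36). CD4, the coreceptor of helper T cells, had 9.87 FPKM in MP and 15.3 in CT, a log2 difference of -0.59. Its count ratio was 0.656 (0.608 to 0.708). CD8A, the alpha chain of the coreceptor of killer T cells, had 21.5 FPKM in MP and 31.5 in CT (-0.53), and its partner chain CD8B had 6.90 and 9.61 FPKM (-0.43). Both coreceptor types were thus lower in the MP mean. The CD4 to CD8A ratio of FPKM was 0.460 in MP and 0.486 in CT. By counts the MP ratio was 0.936 times the CT ratio, with a counting interval of 0.847 to 1.03. That interval spanned 1, which does not show that the steps were alike.

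TRAT1, an adaptor that sits in the membrane beside the receptor, had 10.4 FPKM in MP and 16.2 in CT (-0.59). CD3D had 217 FPKM in MP and 261 in CT, a count ratio of 0.826 (0.803 to 0.849). CD3E, the core CD3 chain of every T cell, had 216 FPKM in MP and 246 in CT, with a count ratio of 0.885 (0.869 to 0.902) and a log2 difference of -0.18, which was -0.10 with median-of-ratios scaling and -0.12 with bins of count per FPKM. The CD3 chains were thus abundant in both groups and lower in MP. Of the genes tested, 29.3% had a lower difference than CD3E and 16.5% a lower one than CD3D. CD3E lay within the quartiles of all genes (-0.21 to 0.10). The log2 difference of CD3D was -0.27 and ran from -0.39 to -0.19 across the settings. That of CD3E ran from -0.24 to -0.10. The zeta chain CD247 had 38.7 FPKM in MP and 44.6 in CT (-0.20). CD5, a receptor that tempers the signal, had 12.3 FPKM in MP and 14.6 in CT (-0.23). CD6, a relative of CD5 and next to it in the RefSeq gene order of assembly GRCg7b, had 5.49 FPKM in MP and 6.61 in CT, also at -0.23.

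Summed over the 8 genes, the receptor complex stood at 533 FPKM in MP and 639 in CT. The symbol CD8A is carried by 3 rows of the table, and the row with the highest level was used. The other rows lay at 0.163 FPKM in MP and 0.273 in CT, and at 0.00 and 0.117. Reads can be split between such near copies, which makes the level of CD8A less certain than that of CD3E.

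**Figure D3:**
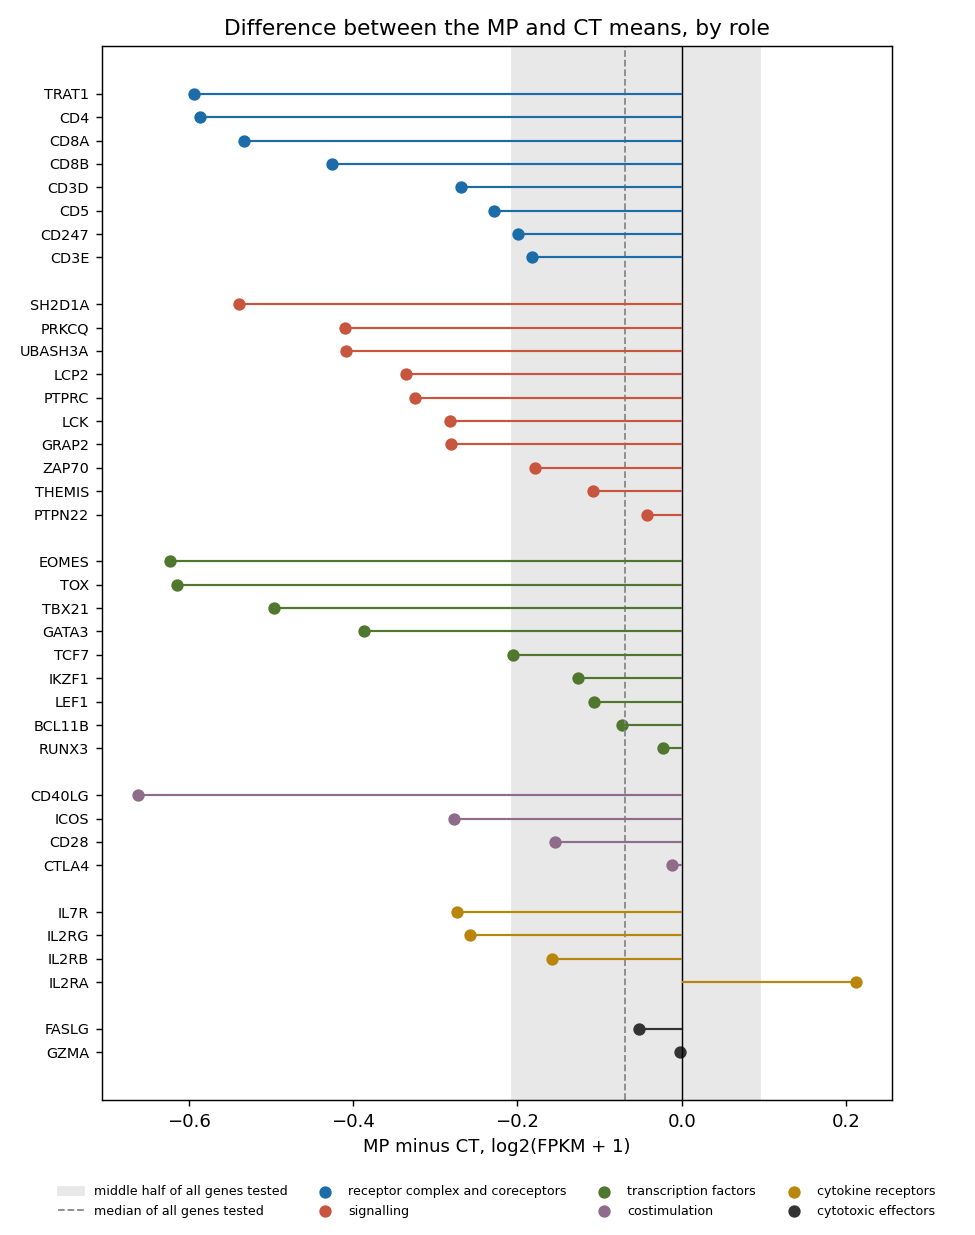
MP minus CT difference on the log2(FPKM + 1) scale for each member, grouped by role. The grey band spans the quartiles of all 12828 genes tested (-0.21 to 0.10) and the dashed line their median; 21 of 37 members lie below the band and 1, IL2RA, above it.

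Signalling genes were lower for 10 of 10 (against 62.2% of all genes), with a median log2 difference of -0.30. The largest difference was that of SH2D1A, the adaptor SAP of the SLAM family receptors, with 11.2 FPKM in MP and 16.7 in CT (-0.54). PRKCQ, the protein kinase C theta that leads to NF-kB, had 6.27 FPKM in MP and 8.65 in CT (-0.41). Its row is an assembled locus, not an Ensembl gene. UBASH3A, a suppressor of the receptor signal, had 3.69 FPKM in MP and 5.23 in CT (-0.41). Other members described here as restraining the signal differed by less: CD5 lay at -0.23, PTPN22 at -0.04 and CTLA4 at -0.01.

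The first kinase of the cascade, LCK, had 24.7 FPKM in MP and 30.3 in CT, with a count ratio of 0.818 (0.788 to 0.850). ZAP70, which LCK activates, had 25.2 FPKM in MP and 28.7 in CT (0.884, 0.844 to 0.927). Its log2 difference of -0.18 was -0.10 with median-of-ratios scaling and -0.09 with bins of count per FPKM. The adaptor genes LCP2 (SLP-76) and GRAP2 (Gads), whose proteins bind each other downstream of ZAP70, lay at log2 differences of -0.34 and -0.28. PTPRC had 71.4 FPKM in MP and 89.7 in CT (-0.32, and -0.17 with bins of count per FPKM), although it is not confined to T cells. The counting interval spanned 1 for 2 signalling genes. THEMIS had a ratio of 0.889 (0.744 to 1.06). PTPN22, a phosphatase that switches LCK off, had 12.3 FPKM in MP and 12.7 in CT, with a ratio of 0.972 (0.914 to 1.03), and its difference changed sign under some settings.

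Transcription factors were lower for 9 of 9 in the deposited FPKM (against 62.2% of all genes). Their median was -0.20 with a range from -0.62 to -0.02, and 7 of them stayed lower under each setting (not BCL11B and RUNX3). EOMES, a T-box factor of natural killer cells and memory CD8 cells, had 3.61 FPKM in MP and 6.10 in CT, a count ratio of 0.597 (0.538 to 0.661). Its relative TBX21 (T-bet), which directs type 1 helper cells and killer cells, had 12.3 FPKM in MP and 17.7 in CT (0.689, 0.641 to 0.741). TOX, needed for T cell development and found in cells under chronic stimulation, had 8.08 FPKM in MP and 12.9 in CT (0.658, 0.599 to 0.722). GATA3, the factor of type 2 helper cells, had 4.18 and 5.77 FPKM (0.736, 0.644 to 0.842). These 4 factors were the ones lower by 0.32 or more in log2.

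The other 5 factors differed by less. TCF7, which keeps T cells in a naive or memory state, had 21.7 FPKM in MP and 25.2 in CT (-0.20). Its relative LEF1 had 7.25 FPKM in MP and 7.88 in CT (-0.11). IKZF1 (Ikaros), present in all lymphocytes, lay at -0.13. BCL11B, which commits cells to the T lineage, had 15.7 FPKM in MP and 16.5 in CT (-0.07). RUNX3, which establishes CD8 T cells, had 32.2 FPKM in MP and 32.7 in CT; its FPKM difference was -0.02 while its count ratio was 1.01 (0.980 to 1.05), so its direction depended on the unit. For LEF1, IKZF1, BCL11B and RUNX3 the counting interval of the ratio spanned 1.

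Costimulatory genes were lower for 4 of 4 (median -0.22), or 3 of 4 under some scalings, in which CTLA4 was higher. CD40LG, with which helper T cells activate B cells and dendritic cells, had the largest log2(FPKM + 1) difference of all members, although EOMES had a lower count ratio. It had 9.29 FPKM in MP and 15.3 in CT, a log2 difference of -0.66 and a count ratio of 0.608 (0.536 to 0.689). Only 1.30% of the genes tested had a lower difference. ICOS had 19.2 FPKM in MP and 23.4 in CT (-0.28), and CD28 had 4.93 and 5.60 FPKM (-0.15). CTLA4, which competes with CD28 for its ligands, had 5.08 FPKM in MP and 5.13 in CT, a ratio of 0.986 (0.857 to 1.13). ICOS, CTLA4 and CD28 follow each other with 0 protein-coding genes between them in the RefSeq order. The counting intervals of their ratios overlapped (0.772 to 0.875 for ICOS, 0.789 to 0.987 for CD28, 0.857 to 1.13 for CTLA4). Overlap of separate intervals does not show that the ratios are alike, and these neighbours were not compared with each other directly.

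Among the cytokine receptors, 3 of 4 genes were lower and IL2RA was higher. IL7R, the survival receptor of resting T cells, had 35.0 FPKM in MP and 42.5 in CT (-0.27). The common gamma chain IL2RG, shared by the receptors for several interleukins, had 37.2 FPKM in MP and 44.7 in CT (-0.26), and the beta chain IL2RB had 19.9 and 22.3 FPKM (-0.16). IL2RA, which activated and regulatory T cells display and which raises the affinity for interleukin 2, had 11.3 FPKM in MP and 9.65 in CT. Its log2 difference was 0.21 and its count ratio 1.17 (1.04 to 1.31). It was higher in MP under each of the 5 scalings, and 85.2% of the genes tested had a lower difference. Counts of IL2RA set against those of IL2RB, which needs no scaling, were 0.201 in MP and 0.154 in CT, a ratio of 1.30 (1.15 to 1.48); this pair was chosen after its values were seen. The ligand itself, IL2, was near the limit of detection with 1 summed count in MP and 2 in CT.

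The role of cytotoxic effectors holds only 2 members, and their median difference was the smallest of the roles. GZMA, a protease of the killing granules, had 179.2 FPKM in MP and 179.5 in CT, with a count ratio of 0.988 (0.959 to 1.02). FASLG, which triggers death through the receptor Fas, had 3.53 FPKM in MP and 3.70 in CT (0.957, 0.817 to 1.12). Both intervals spanned 1, and the median of the pair was -0.03 in the deposited FPKM and 0.04 with median-of-ratios scaling. Killer cell genes outside the members varied. Of 16 such genes 13 were lower (81.25%, against 62.2% of all genes) and 3 higher, with a median log2 difference of -0.11. Among the 13, FCER1G (0.457 FPKM in MP, 2.34 in CT) and STX11 (0.560 and 1.13) reached the minimum only in CT. Their direction was therefore fixed by the minimum level. PRF1 and CTSC had count ratios of 0.741 and 0.650, and CCL5 had 1.60 (1.36 to 1.88). Outside that list, granzyme K had 0.776 (0.723 to 0.833). A weakly expressed granzyme G-like locus had 0.581 (0.433 to 0.775). Both carry no symbol and were chosen after their values were seen. The near equality of GZMA thus did not extend to these granule genes.

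Each other member was also divided by CD3E within its group, which needs no library scaling. Whether CD3E RNA follows T cell number was not tested. CD3D stood at 0.933 times its CT proportion to CD3E (0.902 to 0.965). Relative to CD3E, 24 of 36 genes were lower and 12 higher in MP, with a median of -0.10 on the log2 scale. The base was then changed to the geometric mean of 5 genes (CD3E, CD3D, CD247, LCK and ZAP70). Against it 21 of 36 were lower and the median was -0.06, so the count depends on the base. CD3D, CD247, LCK and ZAP70 are among the 36, so each was compared with a mean that it helps to set. Of all genes tested, 33.2% had a count ratio below that of CD3E. The exact interval lay below 1 for 20 genes, above 1 for 5 and spanned 1 for 11. The share of all genes with such an interval against CD3E was not computed, so these counts have no background. EOMES was lowest, at 0.674 times its CT proportion to CD3E (0.606 to 0.748), followed by CD40LG (0.687, 0.605 to 0.779) and TRAT1 (0.735, 0.658 to 0.820). CD4 stood at 4.56% of the CD3E level in MP and 6.24% in CT, and CD8A at 9.91% and 12.8%.

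The interval spanned 1 for CD247, CD5, ZAP70, THEMIS, CD28, CTLA4, TCF7, LEF1, IKZF1, IL2RB and FASLG. GZMA stood at 82.8% of the CD3E level in MP and 73.1% in CT, a relative ratio of 1.12 (1.08 to 1.16). RUNX3 (1.15, 1.10 to 1.19), PTPN22 and BCL11B were also higher relative to CD3E. IL2RA was highest, at 1.32 (1.17 to 1.48). The 4 coreceptor and T-box genes CD4, CD8A, EOMES and TBX21 thus lay on the lower side of CD3E, and GZMA, RUNX3 and IL2RA on the higher side.

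**Figure D4:**
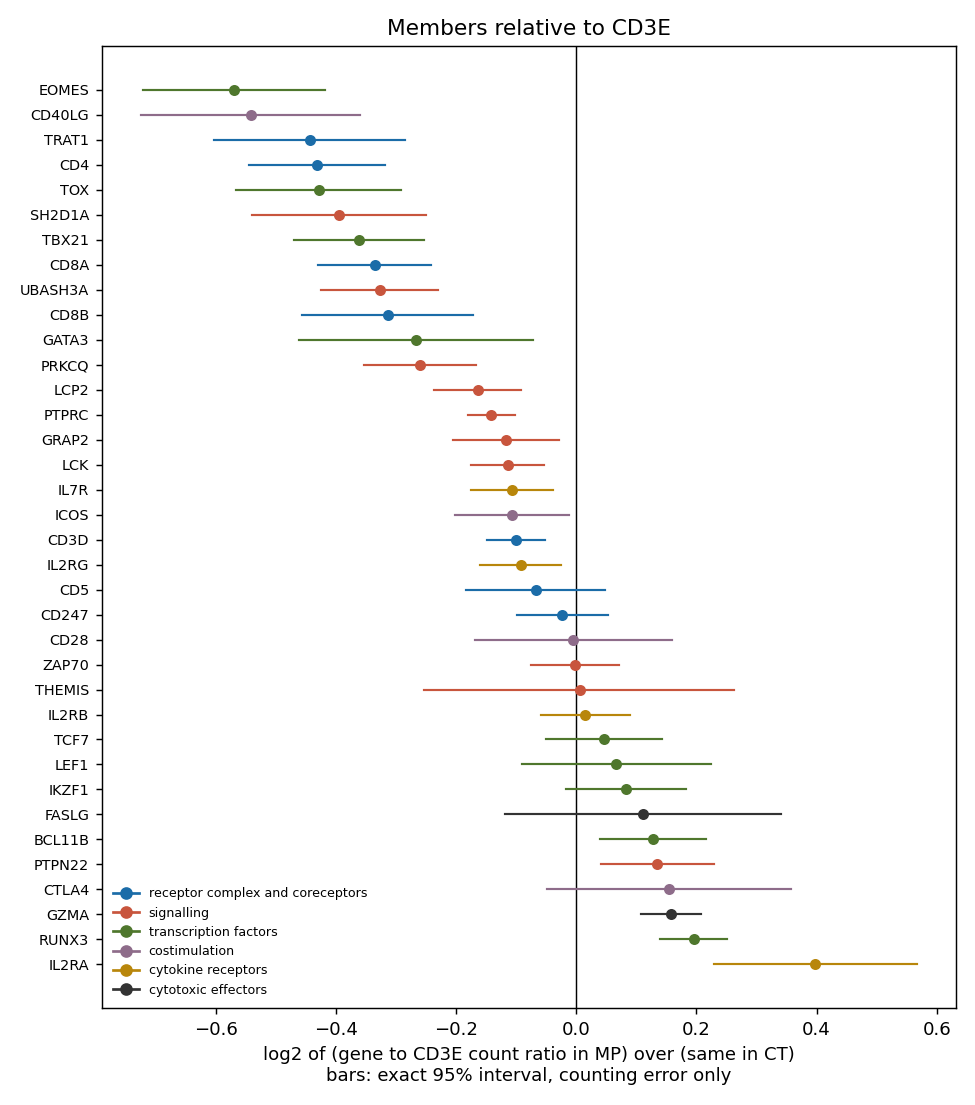
Each member's count relative to CD3E, MP over CT, on the log2 scale, ordered by value and coloured by role. Bars are exact 95% intervals for counting error. Wholly below 0 lie 20 genes, led by EOMES, and 5 lie wholly above, led by IL2RA. The same shares over all genes were not computed.

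Other genes of the pathway were taken from lists drawn up from general knowledge, but with earlier results of these data known. Of 27 further genes of T cell receptor signalling, 24 were lower (88.9%, against 62.2% of all genes, median -0.19). Their median count per FPKM was 47.1, against 35.7 for all genes. Across the 10 bins of count per FPKM, the share of lower genes ran from 37.5% in the lowest to 82.2% in the highest. The list was not compared with its own bins, so the 62.2% may be too low a background for it. By 0.32 or more in log2, 6 were lower and 0 higher, against 11.2% and 8.49% of all genes. NFATC2 and NFATC1, the calcium-driven factors that switch on cytokine genes, had 8.57 and 6.08 FPKM in MP against 12.5 and 8.84 in CT (-0.50 and -0.47). DOCK2, which drives lymphocyte movement, lay at -0.45. The adaptor gene SLA2 (0.14), DGKA (0.11) and TEC (0.04) were the 3 that were higher.

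Of 18 further checkpoint and costimulation genes, 11 were lower (61.1%, median -0.15), a share no larger than the 62.2% of all genes. TNFRSF9 (4-1BB), a costimulatory receptor that appears on activated T cells, was the 1 gene higher by 0.32 or more in log2, with 20.7 FPKM in MP and 14.9 in CT (0.45). CD276, TIMD4 and TNFRSF18 lay at -0.40, -0.37 and -0.32. Of 16 further killer cell genes, 13 were lower (81.25%, median -0.11), including FCER1G and STX11, which reached the minimum level only in CT. The pore-forming protein gene PRF1 had 8.30 FPKM in MP and 11.2 in CT (-0.39), and CTSC, the protease that activates granzymes, had 64.7 and 99.7 FPKM (-0.62). The chemokine gene CCL5, which T cells and natural killer cells secrete, was higher, at 24.1 FPKM in MP and 14.9 in CT (0.66). IFNG, the cytokine of type 1 and killer cells, was below the minimum level, with 21 summed counts in MP and 33 in CT.

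In the common gamma chain axis 6 of 8 genes were lower (75%, against 62.2% of all genes), but the median was -0.02. Its kinase gene JAK1 had 80.5 FPKM in MP and 106 in CT (-0.40), and the receptor genes IL21R and IL4R lay at -0.27 and -0.22. CISH, a feedback inhibitor, lay at 0.12. The KEGG pathway columns of the table name few of these genes (3 for T cell receptor signalling, 2 for natural killer cytotoxicity, 6 for type 1 and type 2 helper cells and 0 for primary immunodeficiency) and were too sparse to describe a pathway. The gene ontology column reached further. Of 266 genes with a process term that holds the words T cell, members left out, 187 were lower (70.3%, median -0.13), against 62.2% of all genes.

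Markers of other cell types are given from the same means, and their part in the T cell results was not tested. Markers of B cells were lower for 8 of 13 (61.5%, median -0.07), near the 62.2% and -0.07 of all genes tested. Their summed levels were 103 FPKM in MP and 104 in CT. Macrophage and dendritic cell markers were lower for 7 of 18 (median 0.04), at 1041 FPKM in MP and 999 in CT. Enterocyte markers were lower for 6 of 18 (median 0.13), at 9116 and 9874 FPKM. Their sum was lower although their median was higher, since FABP6 had 2669 FPKM in MP and 4081 in CT (-0.61). By its median, the T cell list thus lay below these lists of other immune cells and of the epithelium.

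Lists of the muscle layer and of connective tissue lay as low as the T cell list or lower, where 62.2% of all genes were lower. Smooth muscle markers were lower for 11 of 11 (median -0.39), at 2930 FPKM in MP and 4148 in CT. Fibroblast markers were lower for 10 of 10 (median -0.52), at 1011 and 1399 FPKM, and endothelial markers for 10 of 10 (median -0.28), at 134 and 161 FPKM. Cell division genes, which cycling lymphocytes share with epithelial crypts, were lower for 19 of 19 (median -0.42), at 298 and 386 FPKM. None of these markers was at 0 in either group among those with an FPKM of 1. No test of the difference between lists could be made on 1 mean per group, and these marker lists were not adjusted for count per FPKM.

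**Figure D5:**
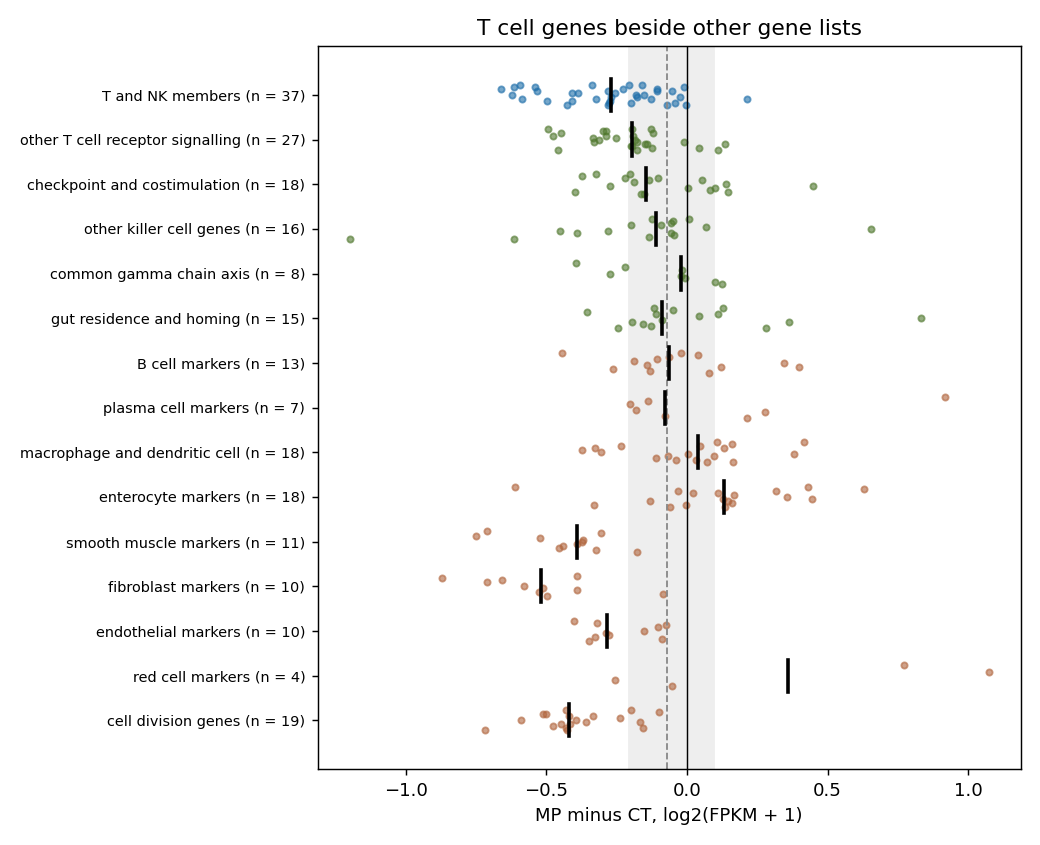
MP minus CT difference on the log2(FPKM + 1) scale for each gene (points) and the list median (black bars), for the members, related T cell lists and markers of other cell types. The band spans the quartiles of all genes; the members' median lies at -0.27, with fibroblast, cell division, smooth muscle and endothelial lists further left.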

How the data were processed

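Ileal total RNA was extracted by TRIzol, per the labels' protocols, and sequenced from libraries made with a kit described as one for small RNA. DESeq2, StringTie 1.3.1, HISAT2, Bowtie2 and fastp 0.18.0 appear in the submitters' processing notes without a stated use. The build of the genome was not given in the sources used here. Per the file headers, the authors deposited FPKM and estimated counts per gene and group. In both groups 100% of the FPKM and count values have the third decimal of a mean of 3 values, and 90.2% of mean counts in MP and 89.9% in CT are whole when multiplied by 3 (within 0.002), so the rounded sums are estimates; 4 further value columns match none of the samples and were not used.

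The pseudocount was 1 and the minimum FPKM 1 in either group. Group sums of counts are 3 times the mean, rounded, and count ratios were divided by the depth ratio of 0.929. Where a symbol repeated, the row with the highest mean FPKM was taken. Genes without a symbol were named by NCBI gene number (13650 of 13969 found in RefSeq, assembly GRCg7b). The edgeR test foreseen for single libraries could not be run on means. Ratios to CD3E have exact conditional intervals (scipy 1.17.1). Each member is named, and from each related list up to 4 genes with an FPKM of at least 5 and the largest difference; genes named beyond that were chosen after their values were seen, and some single genes are not reported here. Members and lists were chosen with earlier results of these data known. The count ratio, its interval and the log2 difference were tried on simulated counts with counting error only, without variation between libraries. Ratios to CD3E, list medians and the other settings were not simulated.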

Additional observations from a re-analysis of the deposited data

How the results depend on the processing

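No paired analysis was possible because the table holds means of groups only, with no replicate numbers. Count tests on single libraries, a fit with a replicate block and leaving out libraries were therefore not run. The members' median lay between -0.33 and -0.17; it was -0.17 with the median of the same bin of count per FPKM (10 bins) subtracted. With that setting the signalling median was -0.19 and the cytokine receptor median -0.11, and the cytokine receptor median was -0.13 with median-of-ratios scaling. Members at least 1.5-fold lower, 5 with the deposited FPKM, numbered 1 with median-of-ratios scaling, 3 with upper-quartile scaling, 3 with library totals (CPM), 2 with bins of count per FPKM and 0 with bins of mean FPKM. The cause was not tested. The other 100 list and ratio values moved by less than counting error or 1.5 times. Of single-gene values 429 moved by less than counting error, 47 by more, and 0 with an interval apart from equality changed sign. In each setting where they were tested, 30 of 37 members were lower and IL2RA higher; BCL11B, CTLA4, FASLG, GZMA, PTPN22 and RUNX3 changed direction in at least 1. The settings with CD6 (37 of 38 lower, median -0.26) and without PRKCQ (35 of 36, -0.26) were chosen after seeing the data. Without replicates, depth limits only the counting intervals.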

Other observations

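Of 15 genes of T cell residence in the gut, 9 were lower (60%, median -0.09), near the 62.2% and -0.07 of all genes tested. ID2, a factor of innate lymphoid cells, had 60.1 FPKM in MP and 46.5 in CT (0.36). The homing receptor gene CCR7, which brings naive T cells into lymphoid tissue, had 15.0 FPKM in MP and 19.5 in CT (-0.35), and the adhesion gene CD44 lay at -0.25.

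The following genes carry no symbol in the table and were chosen after their values were seen. A pair of loci described as CD8 alpha chain-like had larger differences than CD8A: LOC107049158 had 1.60 FPKM in MP and 4.40 in CT (count ratio 0.363, 0.286 to 0.456), and LOC771880 had 1.91 and 4.18 FPKM in its higher row (0.446, 0.346 to 0.571). Reads of such near copies may be split between rows. Granzyme K (GZMK), next to GZMA in the RefSeq order, had 16.8 FPKM in MP and 21.7 in CT (0.776, 0.723 to 0.833), unlike GZMA at 0.988. PTCRA, the pre T cell receptor alpha chain of developing T cells, was higher, at 3.76 FPKM in MP and 1.86 in CT (2.00, 1.63 to 2.46). The checkpoint gene PDCD1 (PD-1) had 10.8 FPKM in MP and 10.1 in CT (1.08, 0.972 to 1.19), and the adhesion gene CD2 had 3.45 and 3.99 FPKM (0.856, 0.751 to 0.975). No explanation of these values was tested.

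Markers of plasma cells were lower for 4 of 7 (57.1%, against 62.2% of all genes, median -0.08). Their summed level was nevertheless 1483 FPKM in MP and 860 in CT, since JCHAIN alone differed by 0.92 on the log2 scale. Red cell markers (4 genes, median 0.36) summed to 159.7 FPKM in MP and 116 in CT.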
